A study of Mus musculus with 12 samples.

Results

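Solute carriers are membrane proteins, encoded by the Slc genes, that move amino acids, sugars, ions, metals, nucleotides and vitamins across the cell surface or the membranes of organelles. The members described here were the probes of a mouse Illumina BeadChip whose gene symbol begins with Slc and a digit and whose detection p was under 0.05 on at least 2 of the 12 arrays. Of 331 named Slc probes (233 genes), 242 probes (180 genes) passed that filter, out of 17565 kept among 45281 probes in all. The other 89 Slc probes, with 53 genes that had no kept probe, stayed out of the tests. The 36 probes just inside the filter, detected on 2 arrays, had means of 4.81 to 5.17 on the normalized log2 scale, and the 61 just outside, detected on 1 array, had 4.69 to 5.12.

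C2C12 is a mouse myoblast line that fuses into myotubes when serum is withdrawn. Total RNA of 6 groups of 2 arrays was measured: wild-type cells kept in growth medium (GM), the same line moved to differentiation medium (DM), and 4 groups moved to that medium after a pool of siRNAs, either scrambled (siScramble) or directed at BRG1 (siBRG1), BAF60B (siBAF60b) or BAF60C (siBAF60c). The siRNA was given to cells growing in 15% serum, the medium was changed to one with ITS after 36 h, and cells were harvested after a further 18 h, with 500 ng of RNA labelled per sample. The wild-type samples carry the transfection entry "control", and the labels do not say whether they met a transfection reagent. BRG1 (gene Smarca4) is an ATPase of the SWI/SNF chromatin-remodelling complex, and BAF60B (Smarcd2) and BAF60C (Smarcd3) are alternative subunits of it, and the design sets each knock-down against the scrambled control. All groups come from 1 cell line, and nothing in the labels says that the 2 arrays of a group were separate cultures, so the spread behind the p-values is that of these arrays and may be technical.

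A myoblast that stops dividing and becomes a myotube changes what it must carry. It takes up glucose and creatine as fuel, moves calcium, chloride and bicarbonate as an excitable cell, and accumulates osmolytes such as taurine. Iron leaves the cell through a single known exporter, ferroportin, and mitochondrial carriers pass ADP, phosphate, citrate and amino acids through the inner membrane.

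Between 153 and 186 of the 242 members were detected per array, and 109 were detected on all 12. The siRNA targets stood at 53.0% (Smarca4 in siBRG1), 34.1% (Smarcd2 in siBAF60b) and 52.3% (Smarcd3 in siBAF60c) of their siScramble mean, and none of these differences passed the test (adjusted p = 0.628, 0.987 and 0.999828). Of 10 myoblast and myotube markers 9 were kept and 6 rose in DM, among them Myog by 6.67 and Actc1 by 7.69 on the log2 scale. Of the markers of other cell types, 0 of 4 adipocyte and 0 of 3 neuronal genes were kept, and the kept osteoblast and chondrocyte (3 of 5) and macrophage and endothelial (2 of 6) genes gave 0 calls. The DM arrays stood apart from each other: 33 members differed by over 1 on the log2 scale between them (25 of these higher in replicate 2), against 2 to 17 members in the other groups. Class counts and medians in DM are therefore given with and without each of its arrays. GM replicate 1 had the highest mean signal before normalization, 839, against 475 on GM replicate 2 and 335 to 536 over all other arrays. It also had the most members detected, 186 against 170 on GM replicate 2. What this array adds to the effect of median scaling given below was not tested.

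Intensities were background corrected, quantile normalized and taken as log2, all 12 arrays were fitted together with limma, and a probe was called at a Benjamini-Hochberg adjusted p under 0.05 over all 17565 kept probes. A gene is given by its brightest member probe, and its other probes are given where they differ in call or sign. A level compares arrays for 1 probe and says nothing of one probe against another. Fewer cells expressing a gene and less of its RNA per cell cannot be told apart in these bulk samples.

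Example promoters of genes called in DM are shown first, since MyoD and myogenin, the factors that drive this differentiation, bind the E box, spelled CANNTG. RefSeq windows of GRCm38.p6, from 250 bases before to 50 after a start site, were found for 141 of the 180 member genes (186 windows). The motifs searched were CAGCTG, which is its own reverse complement, and CAGGTG, read on either strand as CAGGTG or CACCTG. A further motif, TGATGCAA, the amino acid response element that ATF4 binds, was searched on both strands. The 5 windows below belong to Slc2a6 (chr2:27027949-27028248, minus strand), Slc4a3 (chr1:75546212-75546511, plus strand), Slc29a1 (chr17:45599569-45599868, minus strand, 1 of its 8 windows) and Slc27a3 (chr3:90389889-90390188, minus strand), which rose in DM, and to Slc1a3 (chr15:8710758-8711057, minus strand), which fell. Each is printed 5′ to 3′ with the searched motifs in capitals.
Slc2a6: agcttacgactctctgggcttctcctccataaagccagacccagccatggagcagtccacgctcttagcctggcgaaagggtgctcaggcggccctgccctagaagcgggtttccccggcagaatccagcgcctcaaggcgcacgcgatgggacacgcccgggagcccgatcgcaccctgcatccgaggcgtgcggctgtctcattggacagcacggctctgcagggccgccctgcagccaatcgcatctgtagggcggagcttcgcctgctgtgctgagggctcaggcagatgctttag
Slc4a3: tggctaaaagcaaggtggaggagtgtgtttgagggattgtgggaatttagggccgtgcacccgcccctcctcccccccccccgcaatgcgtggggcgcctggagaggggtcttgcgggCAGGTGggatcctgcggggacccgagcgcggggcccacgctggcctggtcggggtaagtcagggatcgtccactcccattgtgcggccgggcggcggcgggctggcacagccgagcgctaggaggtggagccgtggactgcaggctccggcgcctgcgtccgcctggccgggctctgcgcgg
Slc29a1: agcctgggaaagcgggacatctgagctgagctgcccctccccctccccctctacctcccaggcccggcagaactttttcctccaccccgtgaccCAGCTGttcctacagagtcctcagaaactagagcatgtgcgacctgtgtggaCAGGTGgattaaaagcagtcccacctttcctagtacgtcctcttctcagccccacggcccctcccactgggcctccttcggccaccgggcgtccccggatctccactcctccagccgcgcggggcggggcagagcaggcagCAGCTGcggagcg
Slc27a3: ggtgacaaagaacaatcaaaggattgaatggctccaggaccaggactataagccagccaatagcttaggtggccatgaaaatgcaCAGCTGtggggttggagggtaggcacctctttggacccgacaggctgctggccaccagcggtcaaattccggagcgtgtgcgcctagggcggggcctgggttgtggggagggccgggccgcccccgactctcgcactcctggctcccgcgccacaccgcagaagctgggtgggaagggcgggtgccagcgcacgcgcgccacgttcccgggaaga
Slc1a3: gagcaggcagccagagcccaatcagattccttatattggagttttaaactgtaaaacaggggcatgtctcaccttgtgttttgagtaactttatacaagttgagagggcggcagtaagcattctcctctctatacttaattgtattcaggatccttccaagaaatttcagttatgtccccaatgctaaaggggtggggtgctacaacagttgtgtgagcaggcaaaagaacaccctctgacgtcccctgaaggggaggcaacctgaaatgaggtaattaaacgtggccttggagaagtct

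The Slc29a1 window held CAGCTG at -156 and 37 and CAGGTG at -104 relative to the start, Slc27a3 held CAGCTG at -165, Slc4a3 held CAGGTG at -132, and the Slc2a6 and Slc1a3 windows held neither. The printed windows are examples and do not stand for the called genes. Windows of Slc22a4, Slc24a3 and Slc37a2, which also rose in DM, are not printed and held neither motif. Of the 8 Slc29a1 windows, the printed one held the most matches. Among all 32851 windows 16.3% held CAGCTG and 20.2% held CAGGTG, against 16.1% and 23.1% of the 186 member windows. TGATGCAA was in 0.895% of all windows, 1.61% of member windows and 0.0% of those of genes called in DM. Of 26 windows of genes with a probe called higher in DM, 7 (26.9%) held CAGCTG, and these came from 3 of 16 genes (Slc27a3, Slc29a1 and Slc44a1), with 4 of the 7 at Slc29a1. Of 13 windows of genes called lower, 2 (15.4%) held it. The median GC content was 60.7% in member windows and 52.7% in all windows. A match is a description of these letters and not a bound site.

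Differentiation of wild-type cells changed a minority of the solute carriers, with the glucose transporter Slc2a6, the organic cation carrier Slc22a4, the calcium exchanger Slc24a3 and the iron exporter Slc40a1 rising most. In DM against GM 37 of 242 member probes were called (15.3%, the same as the 15.3% of all kept probes), 26 higher (10.7%, against 7.42% of all probes) and 11 lower (4.55%, against 7.85%). By gene, 34 of 180 had a called probe, and 29 were called by their brightest probe (20 higher, 9 lower). Of the 46 genes with several member probes, 22 had all their probes on the same side of 0. Of the 13 of these with a called probe, 2 had every probe called. The median difference was 0.14 over the members and -0.00 over all probes. Each class count in DM below stands against the same shares of all kept probes, 7.42% higher and 7.85% lower. Probes of 1 gene count separately in it, and no class was tested for enrichment. With the BeadChip as a fixed block all 37 passed. Of the 37, 27 had been detected in all 6 groups and 1, Slc6a17, in GM alone. Counts under other settings, here and below, have no share of all kept probes under the same setting beside them. A shift in such a count is therefore not a result about the members. The count was 64 without DM replicate 1, 26 without DM replicate 2, 19 without GM replicate 1 and 17 without GM replicate 2, and no gene called by its brightest probe changed sign without any of these arrays. With median scaling of the arrays, which put the median of all probes at -0.52, 21 members were called, 8 higher and 13 lower, and 13 of the 29 genes lost their call: besides those given below, Slc8a1, Slc8b1, Slc25a1, Slc27a3, Slc27a4, Slc22a18, Slc35a2 and Slc39a7.

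**Figure D1:**
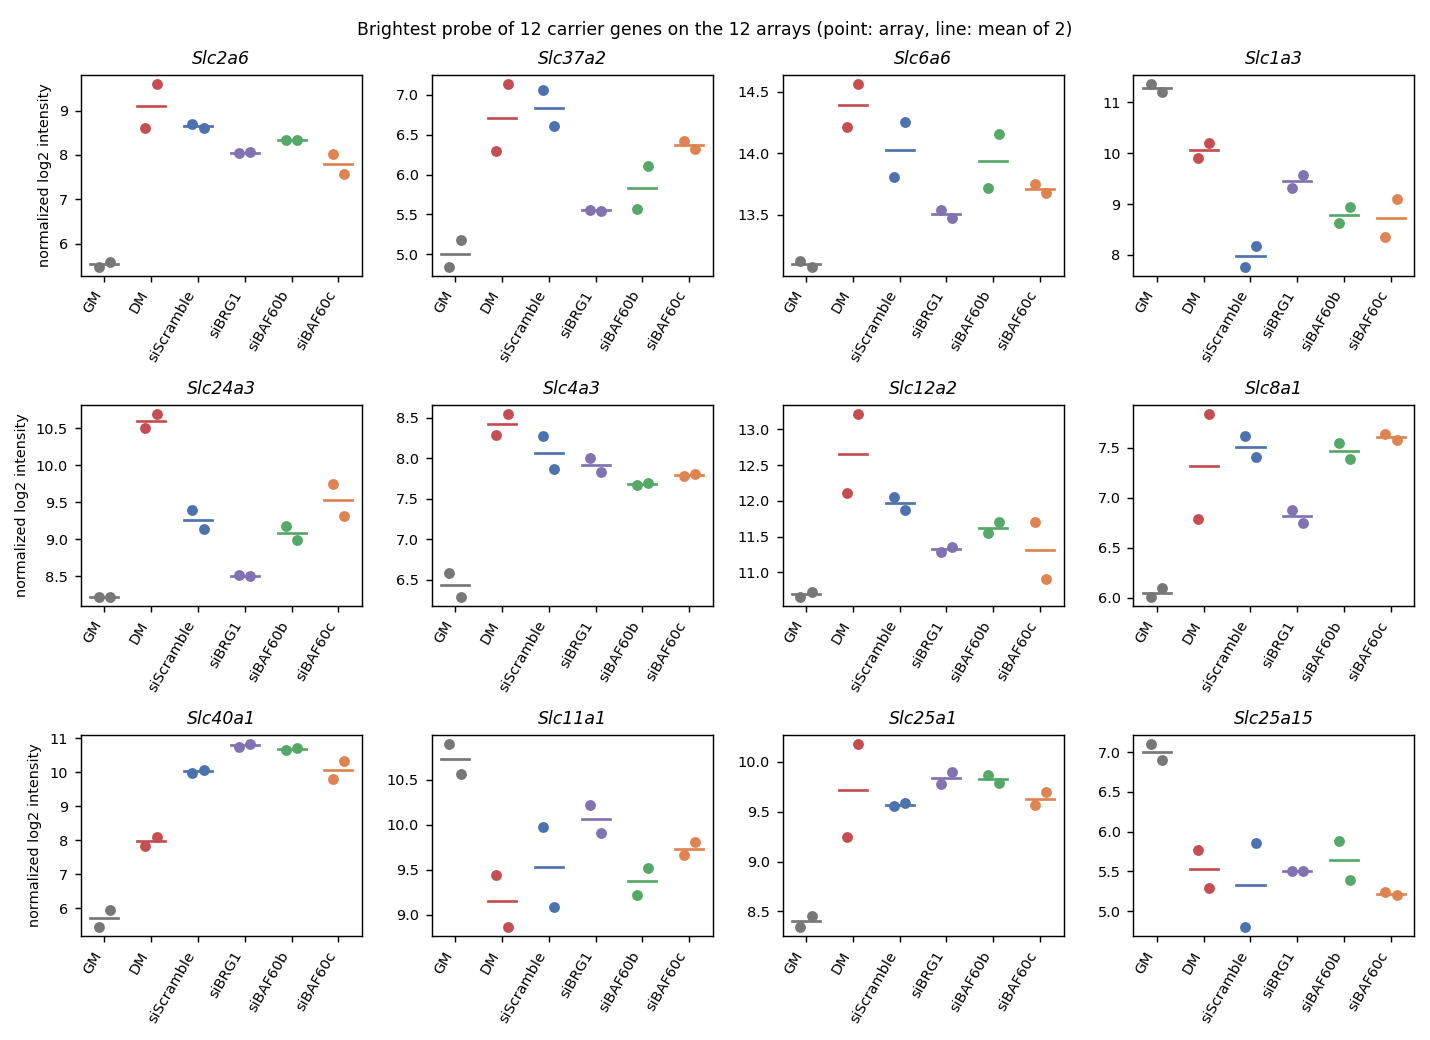
Normalized log2 intensity of the brightest probe of 12 carrier genes (vertical axis of each panel, scaled to that probe) on the 2 arrays of each of the 6 groups; points are arrays and lines the mean of 2. Slc2a6 lies at 5.48 and 5.60 in GM and between 7.57 and 9.60 on the other 10 arrays, whereas Slc1a3 is at 11.36 and 11.20 in GM and lowest in siScramble.

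Among sugar and polyol carriers (18 probes, 12 genes) 3 probes rose and 0 fell in DM, with a class median of 0.33. Without DM replicate 1 these were 3, 0 and 0.50, and without DM replicate 2 they were 4, 0 and 0.33. Slc2a6, the facilitative glucose transporter GLUT6, read 5.48 and 5.60 (GM), 8.61 and 9.60 (DM), 8.69 and 8.62 (siScramble), 8.05 and 8.06 (siBRG1), 8.33 and 8.34 (siBAF60b), and 8.01 and 7.57 (siBAF60c). Every array of cells in differentiation medium lay above both GM arrays. It rose by 3.56 in DM (SE 0.32, adjusted p = 7.95e-06, 11.8-fold), and its call held under all 14 alternatives run. Slc37a2, a sugar phosphate antiporter of the endoplasmic reticulum, was not well above background in GM (4.84 and 5.18) and read 6.29 and 7.14 in DM, at least 2.72-fold higher (adjusted p = 0.00357). The DM arrays did not overlap those of GM, but with median scaling the adjusted p was 0.0503. A second probe of Slc45a4, of the proton-coupled sugar carrier family, rose by 1.74 (SE 0.30; adjusted p = 0.188 with median scaling), while its brightest probe differed by 0.32 and was not called. The glucose transporter of dividing cells, Slc2a1 (GLUT1), stood at 10.63 and 10.30 in GM and 10.24 and 11.14 in DM, a difference of 0.22 (SE 0.31) that was not called and in which the arrays overlapped. Slc2a4, the insulin-responsive GLUT4 of muscle, was detected on 2 of the 12 arrays, 1 of them DM and none GM, and was not called. Slc2a8 (GLUT8) differed by 0.49 (SE 0.30) on its brightest probe, detected on 1 GM array, and was not called.

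Among ion carriers (35 probes, 26 genes) 9 probes of 6 genes rose and 1 fell in DM, with a median of 0.50 and 26 of 35 probes above 0. Of the 9 probes, 3 were of Slc4a3 and 2 of Slc12a2. Of all kept probes 7.42% were called higher and 7.85% lower. The class median lay above that of all probes by 0.50, by 0.63 with median scaling, by 0.79 without DM replicate 1 and by 0.17 without DM replicate 2. Without those arrays 14 and 6 probes rose, and 1 fell in each case. Slc24a3, a potassium-dependent sodium/calcium exchanger, read 8.22 and 8.22 (GM), 10.51 and 10.70 (DM), 9.40 and 9.13 (siScramble), 8.51 and 8.50 (siBRG1), 9.18 and 8.99 (siBAF60b), and 9.75 and 9.31 (siBAF60c). Both DM arrays exceeded all others, and the siBRG1 arrays were nearest to GM. The rise in DM was 2.38 (SE 0.26, adjusted p = 5.11e-05), and the call held under all 14 alternatives. Slc4a3, the chloride/bicarbonate exchanger AE3 of excitable tissue, read 6.58 and 6.29 (GM), 8.29 and 8.55 (DM), 8.27 and 7.87 (siScramble), 8.0 and 7.83 (siBRG1), 7.67 and 7.69 (siBAF60b), and 7.78 and 7.81 (siBAF60c). GM was the lowest group on every array. Slc4a3 rose by 1.98 in DM (SE 0.26, adjusted p = 2.32e-04; 0.0884 with median scaling), and its other probes were at least 3.42-fold higher, with no GM array detected, and 1.06 higher, with 1 GM array detected. The last of these missed the threshold with median scaling (adjusted p = 0.482) and when DM replicate 2, GM replicate 1 or GM replicate 2 was left out (0.148, 0.0516 and 0.254).

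Slc12a2, the sodium/potassium/chloride cotransporter NKCC1, which loads cells with chloride, read 10.65 and 10.73 in GM and 12.10 and 13.22 in DM on its brightest probe. The groups did not overlap, and the rise was 1.97 (SE 0.36, adjusted p = 0.00254; 0.142 with median scaling), with a second probe at 1.39 that did not pass with median scaling (0.438) or without GM replicate 1 (0.059). The plasma membrane sodium/calcium exchanger Slc8a1 (NCX1) read 6.01 and 6.09 (GM), 6.79 and 7.84 (DM), 7.62 and 7.40 (siScramble), 6.88 and 6.75 (siBRG1), 7.55 and 7.39 (siBAF60b), and 7.64 and 7.58 (siBAF60c). It rose by 1.26 in DM (SE 0.32, adjusted p = 0.0169), and the call was lost without DM replicate 2, GM replicate 1 or GM replicate 2 (adjusted p = 0.109, 0.0999 and 0.09). The mitochondrial sodium/calcium exchanger Slc8b1 (NCLX) rose by 1.11 (SE 0.29), a call lost without DM replicate 2 or GM replicate 2 (adjusted p = 0.0569 and 0.194). Slc5a5, the sodium/iodide symporter of the thyroid, was not well above background in GM and read 6.16 and 7.19 in DM, at least 2.64-fold higher, a call lost when GM replicate 1 was left out (adjusted p = 0.0802). The sodium/phosphate cotransporter Slc20a1 (PiT1) fell from 6.44 and 6.37 in GM to 4.82 and 5.02 in DM, not well above background there and at least 1.87-fold lower (adjusted p = 0.00521). Its relative Slc20a2, detected on the 2 GM arrays alone, and the anion exchanger Slc4a2 (AE2), at 0.77 (SE 0.42), were not called; Slc4a2 read 10.17 and 11.80 on the DM arrays and passed without DM replicate 1, at 1.59.

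Among metal carriers (30 probes, 22 genes) 2 probes rose and 4 fell, with a median of 0.06. Without DM replicate 1, 6 rose and 4 fell with a median of 0.26, and without DM replicate 2, 1 rose and 3 fell with a median of -0.10; without GM replicate 1 the median was -0.08 and without GM replicate 2 it was 0.25. Slc40a1, ferroportin, read 5.44 and 5.96 (GM), 7.82 and 8.11 (DM), 9.98 and 10.06 (siScramble), 10.74 and 10.83 (siBRG1), 10.66 and 10.71 (siBAF60b), and 9.79 and 10.32 (siBAF60c). The 3 levels did not overlap: GM lowest, DM between, and the transfected groups highest. It rose by 2.27 in DM (SE 0.29, adjusted p = 1.47e-04), held under all 14 alternatives. Slc11a1 (NRAMP1), a divalent metal carrier best known from phagosomes, fell from 10.90 and 10.56 to 9.45 and 8.86 (-1.57, SE 0.33, adjusted p = 0.00642; 0.069 without GM replicate 1), while a second probe, detected on 1 DM array and no GM array, was not called. The magnesium carrier Slc41a2 fell from 6.80 and 7.13 to 5.72 and 5.10, the latter detected on 1 DM array (-1.55, SE 0.31; adjusted p = 0.0601 without GM replicate 2). Of the zinc importers, Slc39a6 (ZIP6) fell by 1.36 on the log2 scale (SE 0.25) and Slc39a7 (ZIP7) of the secretory pathway rose by 1.12 (SE 0.35), the latter not without DM replicate 2, GM replicate 1 or GM replicate 2 (adjusted p = 0.285, 0.161 and 0.178). A second probe of Slc30a7, a zinc carrier of the Golgi, fell by 1.00 (SE 0.28), not without DM replicate 2, GM replicate 1 or GM replicate 2 (adjusted p = 0.116, 0.086 and 0.176), with the brightest at -0.76 and not called. The copper importer Slc31a1 (0.93, SE 0.32, adjusted p = 0.068), the zinc exporter Slc30a1 (-0.08, SE 0.29) and the importer Slc39a14 (0.06, SE 0.25) were not called, nor was Slc39a1, detected on 1 DM array and no GM array.

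Among carriers of amino acids and amines (40 probes, 31 genes) 3 probes rose and 2 fell, with a median of 0.06. Without DM replicate 1, 5 rose and 3 fell (median 0.11), and without DM replicate 2, 3 rose and 3 fell (median 0.06). The taurine transporter Slc6a6 was bright in every group, at 13.12 and 13.08 (GM), 14.21 and 14.56 (DM), 13.81 and 14.25 (siScramble), 13.53 and 13.47 (siBRG1), 13.72 and 14.15 (siBAF60b), and 13.75 and 13.67 (siBAF60c). GM was lowest and did not overlap any other group. The rise in DM was 1.29 (SE 0.28, adjusted p = 0.00693), and 0.44 with median scaling (adjusted p = 0.58). Without GM replicate 2 it was 1.27 and not called. A second probe, not well above background in DM, lay on the other side of 0 and was not called. Slc6a2, the noradrenaline transporter of sympathetic neurons, was detected on both DM arrays (6.32 and 7.41) and 1 siBRG1 array alone, and was at least 3.01-fold above GM. It would not have passed the detection filter without DM, where it was high, so this difference is a description. Slc7a4, an orphan of the cationic amino acid carrier family, was at least 2.63-fold higher, and did not pass without DM replicate 2, GM replicate 1 or GM replicate 2 (adjusted p = 0.0599, 0.0717 and 0.057).

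The glial glutamate transporter Slc1a3 (GLAST) read 11.36 and 11.20 (GM), 9.91 and 10.20 (DM), 7.77 and 8.18 (siScramble), 9.32 and 9.57 (siBRG1), 8.62 and 8.95 (siBAF60b), and 8.36 and 9.10 (siBAF60c). GM was highest and siScramble lowest, with DM between. Slc1a3 fell by 1.22 on the log2 scale in DM (SE 0.31, adjusted p = 0.0166; 0.108 without GM replicate 1 and 0.0779 without GM replicate 2). The vesicular neutral amino acid carrier Slc6a17 was detected on the 2 GM arrays alone and entered the test through them, so its level of 5.64 and 6.11 there, at least 1.29-fold above DM, is a description. Among the carriers that take up amino acids for protein synthesis and redox control, the following members were not called. Slc38a2 (SNAT2) differed by -0.72 (SE 0.35) and Slc3a2, the heavy chain of the heteromeric exchangers, by -0.51 (SE 0.39). Slc7a11, the cystine importer, differed by 0.05 (SE 0.32) and Slc1a4 (ASCT1) by 0.30 (SE 0.32). Slc1a5, Slc7a1 and Slc7a5 were not among the members, so the test did not cover them. The creatine transporter Slc6a8 differed by 0.36 (SE 0.31) and the glycine transporter Slc6a9 by 0.71 (SE 0.29), also uncalled. The DM arrays of Slc38a2 read 10.77 and 9.56 and those of Slc6a8 9.11 and 10.11, and both genes passed without DM replicate 1, at -1.32 and 0.86.

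Mitochondrial carriers (40 probes, 29 genes) had 1 probe higher and 2 lower in DM. Without DM replicate 1, 4 rose and 3 fell (median 0.23), without DM replicate 2, 0 rose and 2 fell (median 0.02), and without either GM array none passed. Slc25a1, which exports citrate for fatty acid and sterol synthesis, read 8.34 and 8.45 in GM and 9.25 and 10.18 in DM. The arrays did not overlap, and the rise was 1.32 (SE 0.30, adjusted p = 0.0101). It was lost without DM replicate 2, GM replicate 1 or GM replicate 2 (adjusted p = 0.0604, 0.0745 and 0.0593). Slc25a15, the ornithine carrier of the urea cycle, fell from 7.10 and 6.90 to 5.77 and 5.30, detected on 1 DM array (-1.47, SE 0.34), and was lost without the same arrays (adjusted p = 0.0617, 0.0877 and 0.0587); a second probe, detected on 1 GM array, differed by 0.55. A second probe of the ATP-Mg/phosphate carrier Slc25a24, not well above background in DM, was at least 2.22-fold lower and did not pass without DM replicate 2, GM replicate 1 or GM replicate 2 (adjusted p = 0.0529, 0.0591 and 0.0647), and the brightest differed by -0.97 without being called. The following core carriers among the members were uncalled. The ADP/ATP carrier Slc25a5 differed by -0.14 (SE 0.27) and the phosphate carrier Slc25a3 by -0.58 (SE 0.33), with a second probe at 0.23. The aspartate/glutamate carrier Slc25a12 differed by -0.37 (SE 0.27), the acylcarnitine carrier Slc25a20 by 0.54 (SE 0.32) and mitoferrin Slc25a37 by -0.44 (SE 0.30). Slc25a4 was not a member and was not tested. Slc25a3 passed without DM replicate 1, at -1.09. The class median was 0.12, and it lay above that of all probes by 0.01 with median scaling.

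The nucleotide sugar carriers of the Golgi and endoplasmic reticulum (25 probes, 18 genes) had 2 probes higher and 1 lower, with a median of -0.07. Without DM replicate 1, 4 rose and 2 fell (median -0.27), and without DM replicate 2 none passed (median -0.22), nor without either GM array. Slc35a2, the UDP-galactose carrier, rose by 0.84 (SE 0.27) and was lost without DM replicate 2, GM replicate 1 or GM replicate 2 (adjusted p = 0.121, 0.236 and 0.119). Another probe of Slc35c2 rose by 0.99, with the brightest at 0.10, and was lost without those arrays (0.278, 0.157 and 0.185) and with median scaling (0.789). Slc35e4, an orphan, was at least 1.33-fold lower but did not pass without those same arrays (adjusted p = 0.0648, 0.0819 and 0.106). Slc35a1, the CMP-sialic acid carrier, differed by -0.55 (SE 0.47), with DM arrays at 6.50 and 4.73.

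Among the others (49 probes, 38 genes) 6 probes rose and 1 fell, with a median of 0.12. Without DM replicate 1, 12 rose and 2 fell (median 0.17), and without DM replicate 2, 2 rose and 1 fell (median 0.17). Slc22a4 (OCTN1), which carries ergothioneine and organic cations, read 5.25 and 5.62 (GM), 7.96 and 7.68 (DM), 6.56 and 6.18 (siScramble), 5.96 and 6.12 (siBRG1), 6.39 and 6.22 (siBAF60b), and 5.33 and 6.07 (siBAF60c). DM stood above every other array. It rose by 2.38 (SE 0.31, adjusted p = 1.71e-04) and held under all 14 alternatives, while its carnitine-carrying relative Slc22a5 differed by 0.17 (SE 0.34). The equilibrative nucleoside transporter Slc29a1 (ENT1) rose from 9.93 and 10.34 to 11.71 and 12.45 (1.95, SE 0.31, adjusted p = 9.88e-04; 0.0906 with median scaling); a second probe read 8.64 and 4.80 on the DM arrays, detected on the former, and differed by -0.73 (SE 0.88).

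The fatty acid transport proteins Slc27a3 and Slc27a4 rose by 1.38 (SE 0.32, detected on 1 GM array) and 0.98 (SE 0.31). Slc27a3 did not pass without DM replicate 2 or GM replicate 2 (adjusted p = 0.0529 and 0.14). Slc27a4 and Slc22a18, an organic cation family member that rose by 1.12 (SE 0.32, detected on 1 GM array), did not pass without DM replicate 2 (0.187 and 0.133), GM replicate 1 (0.247 and 0.185) or GM replicate 2 (0.117 and 0.081). A second probe of the choline transporter Slc44a1 rose by 1.20 (SE 0.29), not with median scaling (adjusted p = 0.685) nor without DM replicate 2 or GM replicate 2 (0.0654 and 0.129), with its brightest probe at 9.83 and 9.91 in GM and 9.64 and 9.87 in DM and uncalled. The thiamine transporter Slc19a2 fell by 1.09 on the log2 scale (SE 0.30), not without GM replicate 1 (adjusted p = 0.233). The 5 probes of 4 genes that bear an Slc symbol but encode no carrier (Slc4a1ap, Slc7a6os, Slc9a3r1 and Slc9a3r2) gave 0 calls.

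**Figure D2:**
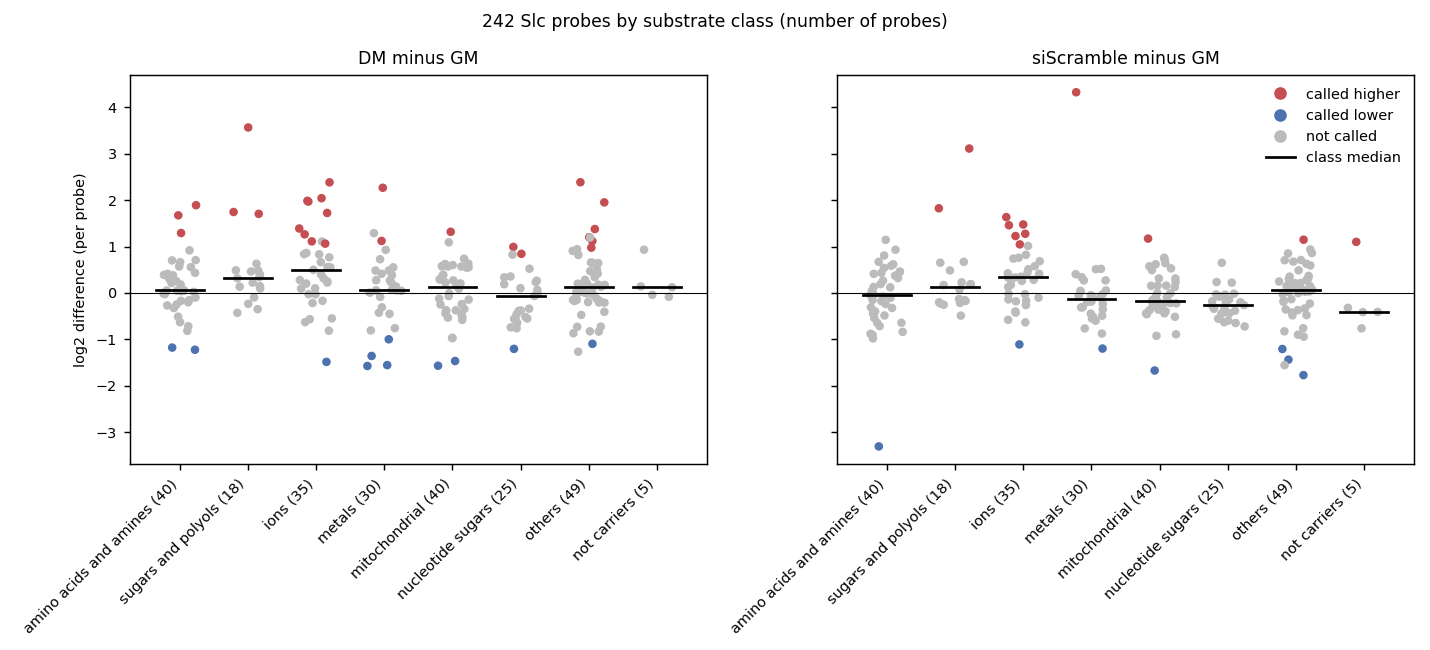
Log2 difference of each of the 242 Slc probes (vertical axis) by substrate class (horizontal axis, with the number of probes) for DM minus GM and siScramble minus GM, which share the GM arrays; red and blue points are called higher and lower, grey points are not called, and black lines are class medians. The ion class has a median of 0.50 in DM minus GM and 0.33 in siScramble minus GM, and nucleotide sugar carriers have -0.07 and -0.26.

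The transfected control was in the same medium as DM and is set against the same GM arrays, so its values are no independent repeat. Those GM arrays are of wild-type cells, and no transfected cells were measured in growth medium. The difference of siScramble from GM therefore holds transfection as well as the medium change. In siScramble against GM 19 member probes were called (7.85%, against 8.83% of all probes), 12 higher (4.96%, against 4.55%) and 7 lower (2.89%, against 4.28%). With the BeadChip as a fixed block 17 of the 19 passed, and Slc20a1 and Slc27a3 did not (adjusted p = 0.0890 and 0.105). Without 1 array the count ran from 7 (without siScramble replicate 1) to 11 (without siScramble replicate 2), with 9 without GM replicate 1 and 9 without GM replicate 2, and 10 were called with median scaling (2 higher and 8 lower, all-probe median -0.56). Under that scaling 10 of the 18 genes called by their brightest probe lost their call: Slc4a3, Slc8a1, Slc8b1, Slc9a3r1, Slc12a2, Slc20a1, Slc24a3, Slc25a1, Slc27a3 and Slc37a2. Slc40a1 rose by 4.32 (SE 0.29, adjusted p = 1.16e-06), Slc2a6 by 3.11 (SE 0.32, adjusted p = 3.57e-05, 8.64-fold) and Slc37a2 at least 2.95-fold. Slc40a1 and Slc2a6 held under all 14 alternatives, whereas Slc37a2 had an adjusted p of 0.0525 with median scaling and 0.0514 without siScramble replicate 1.

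Of the ion carriers (6 probes higher, 1 lower, median 0.33, 23 of 35 above 0), Slc4a3 rose by 1.63 (adjusted p = 0.0015; 0.242 with median scaling), with its other probes not called, and Slc12a2 rose by 1.27 and 1.48 on its probes. Of all kept probes 4.55% were called higher and 4.28% lower in this comparison. Slc8a1 rose by 1.46 (adjusted p = 0.0109), Slc8b1 by 1.23 and Slc24a3 by 1.05 (0.80, 0.39 and 0.20 with median scaling), while Slc20a1, detected on 1 siScramble array, fell by 1.11 on the log2 scale. Slc24a3, Slc20a1 and the brightest Slc12a2 probe did not pass without any 1 of the 4 arrays (adjusted p up to 0.196, 0.235 and 0.234). Slc8a1 did not pass without GM replicate 1, GM replicate 2 or siScramble replicate 1 (0.0916, 0.073 and 0.107), and Slc8b1 not without GM replicate 2 or either siScramble array (0.193, 0.0618 and 0.114). Whether the ion class differs between the DM and siScramble comparisons was not tested as a class.

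The largest fall was that of Slc1a3, by 3.30 on the log2 scale (SE 0.31, adjusted p = 1.62e-05), and Slc19a1, the reduced folate carrier, fell by 1.77 (SE 0.27, adjusted p = 9.84e-04) from 9.25 and 8.81 to 7.22 and 7.30. Both calls held under all 14 alternatives. Slc10a3, an orphan of the bile acid carrier family, fell by 1.44 (adjusted p = 0.00501; 0.0707 without GM replicate 2 and 0.0581 without siScramble replicate 1). Slc25a15 fell by 1.67 (adjusted p = 0.00748; 0.0795 without GM replicate 1 and 0.119 without siScramble replicate 1). The multivitamin transporter Slc5a6, which carries biotin and pantothenate, fell by 1.21, not without GM replicate 1 or either siScramble array (0.265, 0.135 and 0.104), and Slc11a1 fell by 1.20, not without either GM array or siScramble replicate 2 (0.239, 0.111 and 0.277).

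Slc25a1 rose by 1.17 and Slc27a3 by 1.15 in siScramble, and Slc9a3r1, a scaffold that binds carriers and is none itself, rose by 1.10. Slc25a1 and Slc9a3r1 did not pass without any 1 of the 4 arrays (adjusted p up to 0.159 and 0.246), and Slc27a3 passed without GM replicate 1 but not without GM replicate 2, siScramble replicate 1 or siScramble replicate 2 (0.372, 0.202 and 0.114). Nucleotide sugar carriers had 0 calls and a median of -0.26, with 3 of 25 probes above 0, against a median of -0.02 over all probes. Of a panel of muscle-relevant carriers, chosen with earlier results of these data known, 29 genes were members and are counted by their brightest probe. In DM 6 were called higher and 1 lower (24.1%, where 15.3% of all kept probes were called). In siScramble 4 were called higher and 1 lower (17.2%, where 8.83% of all kept probes were). The panel counts genes and those shares count probes, and its choice was not blind to these data. Enrichment of the panel cannot be read from them. The fitted differences of the uncalled panel members lay between -0.72 and 1.29 in DM (22 genes) and between -0.92 and 0.93 in siScramble (24 genes).

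**Figure D3:**
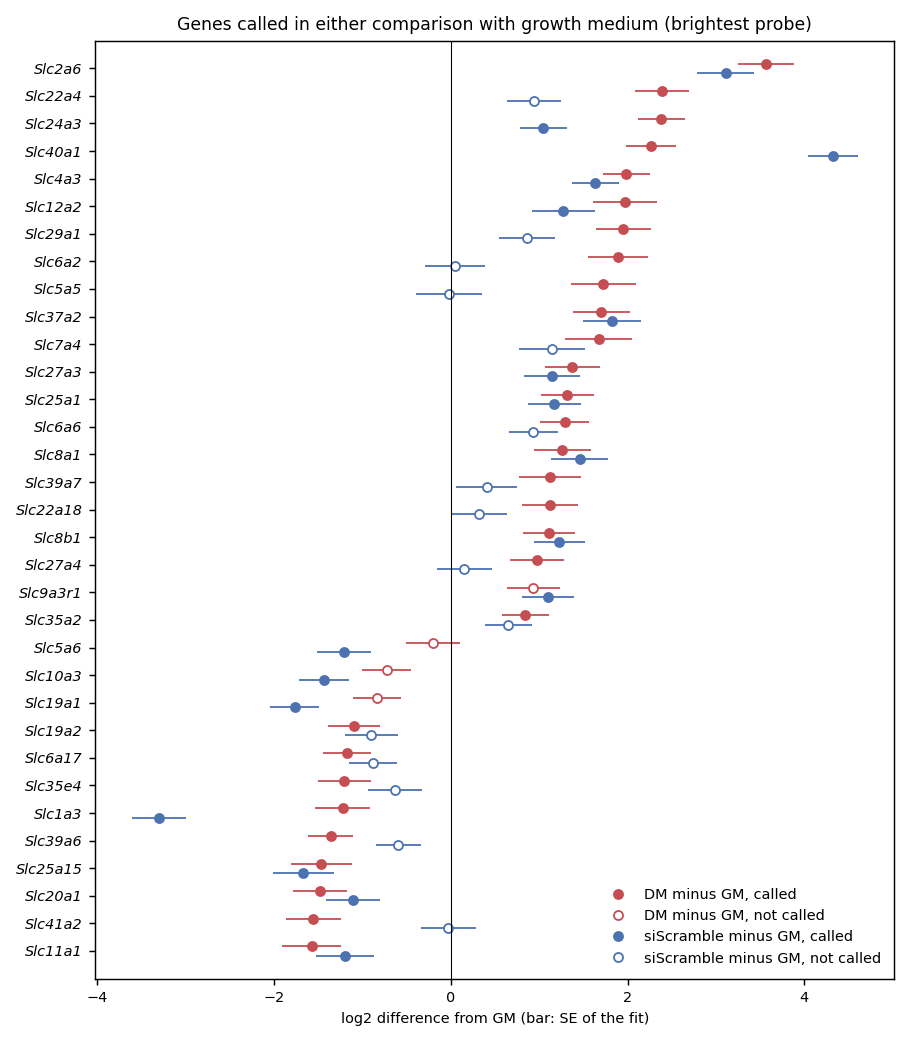
Log2 difference from GM (horizontal axis, bars are the SE of the fit) for the 33 genes called by their brightest probe in DM minus GM (red) or siScramble minus GM (blue); filled points are called, open points are not. Slc40a1 (2.27 and 4.32) and Slc1a3 (-1.22 and -3.30) lie farther from 0 in siScramble, while Slc6a2 and Slc5a5, not well above background in GM or siScramble, are near 0 there.

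Set directly against each other, transfected control and wild-type cells in differentiation medium differed in 8 member probes (3.31%, against 2.02% of all probes), 3 higher in siScramble (1.24%, against 1.13%) and 5 lower (2.07%, against 0.894%). Ferroportin Slc40a1 was higher in siScramble by 2.06 (SE 0.29, adjusted p = 0.00197, 4.16-fold) and the magnesium carrier Slc41a2 by 1.53 (SE 0.31), from 5.72 and 5.10 in DM, where 1 array was detected, to 6.69 and 7.18. Slc1a3 was lower by -2.08 (SE 0.31, adjusted p = 0.00313), Slc22a4 by -1.45 and Slc24a3 by -1.34. Slc6a2 and Slc5a5, detected on both DM arrays, were not well above background in siScramble, at least 2.78-fold and 2.44-fold lower. Slc6a2 would not have passed the detection filter without DM, where it was high, so its difference is a description although it is among the 8. The second probe of Slc25a24, not well above background in DM, was at least 2.21-fold higher, and the brightest differed by 1.10 without a call. With the BeadChip as a fixed block 5 of the 8 passed, and Slc22a4, Slc6a2 and the Slc25a24 probe did not (adjusted p = 0.0921, 0.0532 and 0.122). The count was 42 without DM replicate 1, 4 without DM replicate 2, 1 without siScramble replicate 1, 2 without siScramble replicate 2 and 0 with median scaling. Slc40a1 passed without any 1 of the 4 arrays, and Slc1a3 had an adjusted p of 0.0508 without siScramble replicate 1. Transfection cannot be told apart here from whatever else separated the siRNA series from the wild-type series, since 1 BeadChip carried DM replicate 1 with siScramble replicate 2 and the other arrays lay on different BeadChips; on that BeadChip the differences were 2.24 for Slc40a1 and -1.73 for Slc1a3.

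Knock-down of the SWI/SNF subunits left no solute carrier past the threshold. Of the 242 members, 0 were called in siBRG1 against siScramble (0.114% of all probes were), 0 in siBAF60b (0.0%) and 0 in siBAF60c (0.0%) by limma. At an unadjusted p under 0.05 there were 21 members in siBRG1 (8.68%, against 7.13% of all probes), 9 in siBAF60b (3.72%, against 3.01%) and 7 in siBAF60c (2.89%, against 4.27%). The median SE of a difference over all probes was 0.322 with 2 arrays per group. These 3 comparisons share the siScramble arrays. With array weights in the same fit, 2 members passed in siBRG1, Slc1a3 and Slc37a2, and 0 in the other knock-downs.

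Slc1a3 had the lowest p in siBRG1, higher by 1.47 (SE 0.31, adjusted p = 0.118), at 9.32 and 9.57 against 7.77 and 8.18 in siScramble. It stood 0.81 higher in siBAF60b (SE 0.31) and 0.75 higher in siBAF60c (SE 0.31), and the siScramble arrays were below all knock-down arrays. Slc37a2 differed by -1.28 in siBRG1 (SE 0.33, adjusted p = 0.232), with arrays at 5.56 and 5.54 against 7.05 and 6.61. Its differences were -1.0 in siBAF60b and -0.46 in siBAF60c. The glutamate transporter Slc1a2 (GLT1) read 6.19 and 5.53 in siScramble and was not well above background in siBRG1 or siBAF60b, at least 1.45-fold and 1.44-fold lower, without a call.

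Other siBRG1 differences of low p without a call were -0.93 for Slc41a2, 0.77 for the sugar carrier Slc50a1, -0.76 for Slc24a3, -0.83 for Slc8b1, 0.76 for Slc40a1 and 1.00 for the lysosomal carrier Slc46a3. On both siBRG1 arrays against both of siScramble, Slc24a3 read 8.51 and 8.50 against 9.40 and 9.13, Slc8b1 8.72 and 8.44 against 9.26 and 9.58, and Slc8a1 6.88 and 6.75 against 7.62 and 7.40 (-0.70, SE 0.32, adjusted p = 0.695). In siBAF60b the fatty acid transport protein Slc27a1 differed by 1.15 (SE 0.49), with siScramble arrays at 4.81 and 6.21, the latter detected, and the glucose transporter Slc2a10, detected on no siScramble array, was at least 1.23-fold higher. In siBAF60c Slc2a6 differed by -0.86 (SE 0.32), Slc2a8 by 0.82 (SE 0.30) and Slc22a4 by -0.67 (SE 0.31), and a second probe of Slc12a2 by -0.97 (adjusted p = 0.815), the lowest p of that comparison. None of these passed. For Slc2a1 the 3 differences were 0.08, 0.10 and 0.12 (SE 0.31 each).

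**Figure D4:**
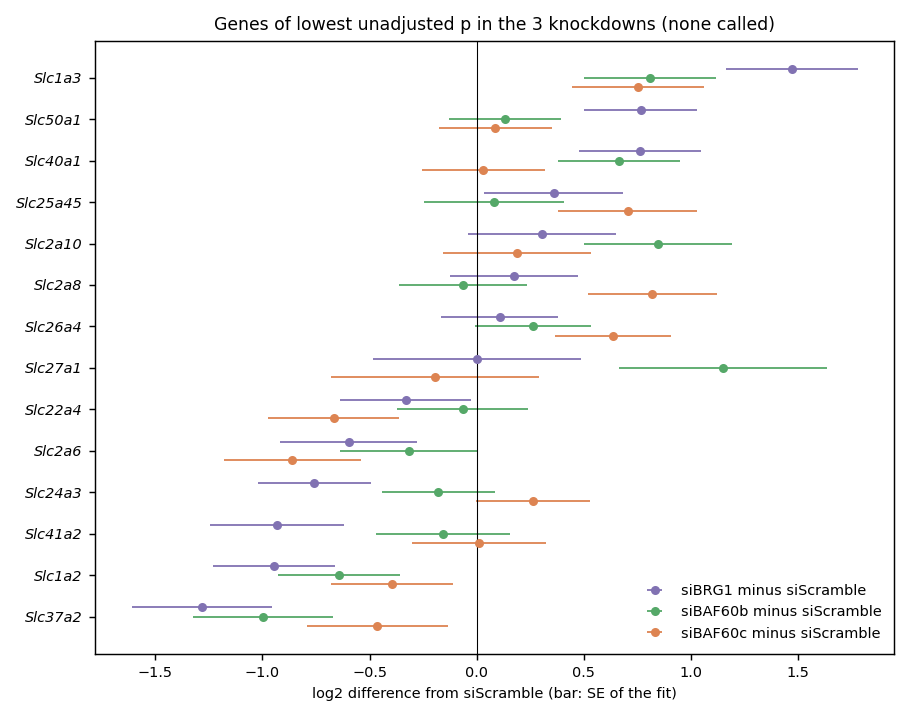
Log2 difference from siScramble (horizontal axis, bars are the SE of the fit) for the 14 genes among the 6 of lowest unadjusted p in any of the 3 knock-downs; purple, green and orange points are siBRG1, siBAF60b and siBAF60c. None is called, and Slc1a3 (1.47, 0.81 and 0.75) and Slc37a2 (-1.28, -1.0 and -0.46) lie on one side of 0 in all 3.

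The carriers that responded to differentiation were followed into the knock-downs, which share no array with DM or GM. Of the 26 member probes called higher in DM, 17 (65.4%) were below 0 in siBRG1, against 71.3% of all probes called higher in DM, and of the 11 called lower 6 (54.5%) were above 0, against 74.6%. In siBAF60b 17 of 26 (65.4%, against 59.7%) and 4 of 11 (36.4%, against 63.9%) lay on the opposite side of 0 from their change in DM. In siBAF60c 14 of 26 (53.8%, against 64.8%) and 7 of 11 (63.6%, against 61.4%) did. The median of the 26 was -0.22 in siBRG1 (all such probes -0.24), -0.08 in siBAF60b (-0.07) and -0.09 in siBAF60c (-0.12). The member share was above that of all probes in 2 of these 6 counts and below it in the other 4.

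The knock-downs were also compared with each other, sharing arrays pairwise. For siBAF60c against siBRG1 0 members were called (0.0512% of all probes) and 19 had an unadjusted p under 0.05 (7.85%, against 6.39%). For siBAF60b against siBRG1 these were 0 (0.0171%) and 12 (4.96%, against 4.9%), and for siBAF60c against siBAF60b 0 (0.0%) and 9 (3.72%, against 4.51%). Slc24a3 was the member of lowest p between siBAF60c and siBRG1, 1.02 higher in siBAF60c (SE 0.26, adjusted p = 0.299), with arrays at 9.75 and 9.31 against 8.51 and 8.50. Between siBAF60b and siBRG1 it was the scaffold Slc9a3r2 (0.94, SE 0.28, adjusted p = 0.498), and between siBAF60c and siBAF60b Slc2a8 (0.88, SE 0.30, adjusted p = 0.874).

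Genes outside the Slc families that work with these carriers were taken from a list of 31 partners and regulators, of which 24 were kept. Of these, 4 were called higher and 2 lower in DM, where 15.3% of all kept probes were called. In siScramble against GM 4 were higher and 2 lower, where 8.83% of all kept probes were called. The list counts genes, those shares count probes, and the list was chosen with earlier results of these data known. It also holds Ckm, one of the muscle markers above. Enrichment of the list cannot be read from these counts. In the knock-downs 0 were called, which with 2 arrays per group does not show that they were unchanged. Txnip, which restrains glucose uptake, rose by 1.66 and 2.24 in DM and siScramble, the calcium pump Atp2a1 by 6.05 and 4.10, creatine kinase Ckm by 5.36 and 4.58, and Gamt, the last enzyme of creatine synthesis, by 2.96 and 3.04. The amino acid response genes Asns and Chac1 fell by 1.26 and 1.33 on the log2 scale in DM. In siScramble the genes that fell were Myc and the sodium pump subunit Atp1b1 (-1.02 and -1.47). The transcription factor Atf4, which drives amino acid carriers under starvation, differed by -0.19 and -0.17 and was not called.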

How the data were processed

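The deposited table held, per the file headers, an average bead intensity on a linear scale, with the detection p-value, per probe and array; the authors' processed intensity values were used as an alternative. Software and background settings of the authors are not given in the sources used here. Background correction from the detection p-values, quantile normalization and log2 with an offset of 16 used neqc of limma 3.58.1 in R 4.3.3. The 17565 probes whose detection p fell under 0.05 on 2 or more of the 12 arrays were kept, named through the platform annotation supplied, with symbols updated through RefSeq gene IDs (19589 probes had 1 symbol, 8 several). All arrays were fitted with lmFit and eBayes (6 residual and 7.44 prior degrees of freedom), contrasts adjusted by Benjamini-Hochberg, and the fit was tested on simulated data. The number of arrays limits the precision: an exact permutation test of 2 against 2 arrays cannot go below p = 0.333. "At least" folds set the bright mean against the lowest detected signal of each array.

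Members, classes and lists were chosen with earlier results of these data known. Named genes were, per class, up to 5 called each way by size, the 10 of lowest p where under 10 genes were called, and a panel of 42 genes, of which 29 were members; Slc8b1 in DM and genes with a called second probe were added after their values were seen. Genes with an Slc symbol that encode no carrier were set apart after the data were seen. Alternatives comprised median scaling, no background correction, the authors' values, other filters, 1 probe per gene, BeadChip or replicate block, only the groups compared, array weights, and leaving out each array.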

Additional observations from a re-analysis of the deposited data

Results flagged for a closer look

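Growth medium was measured in wild-type cells alone, so the medium change of transfected cells was not measured. In the test of siScramble against DM, both in differentiation medium, 8 member probes differed. The fitted log2 differences were 2.06 for Slc40a1, 1.53 for Slc41a2 and 1.56 for a second probe of Slc25a24, higher in siScramble, and -2.08 for Slc1a3, -1.45 for Slc22a4, -1.34 for Slc24a3, -1.74 for Slc5a5 and -1.84 for Slc6a2, lower there. Where a group was not well above background these are no more than fitted values. The bounds were at least 2.21-fold for the Slc25a24 probe (DM), 2.44-fold for Slc5a5 and 2.78-fold for Slc6a2 (siScramble). Slc6a2 passed the detection filter only with the DM arrays, where it was high, so its value is a description. Slc41a2 was detected on 1 DM array. Against the wild-type GM arrays, Slc40a1 was higher by 2.27 in DM and 4.32 in siScramble, and Slc1a3 lower by 1.22 and 3.30. These genes lay further from GM in siScramble than in DM, whereas Slc22a4 (2.38 and 0.94) and Slc24a3 (2.38 and 1.05) lay nearer. Slc41a2 differed by -1.55 and -0.03. With the BeadChip as a fixed block Slc22a4, Slc6a2 and the Slc25a24 probe did not pass. The number of called probes was 42 without DM replicate 1 and 1 without siScramble replicate 1. The part of the transfection and of the BeadChips in these differences was not tested.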

How the results depend on the processing

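Of the 37, 19 and 8 called probes, 0 changed sign under any of the 14 alternatives in which they had a value. Against 37 calls for DM minus GM, median scaling gave 21, only the groups compared 8 and array weights 17; leaving out 1 array gave 17 to 64. Against 19 for siScramble minus GM, median scaling gave 10 and array weights 31, and leaving out 1 array 7 to 11. Against 8 for siScramble minus DM, median scaling gave 0, the BeadChip as a fixed block 5, only the groups compared 0 and array weights 2, and leaving out 1 array 1 to 42. For siBRG1 minus siScramble array weights gave 2 in place of 0; the other knock-down counts were 0 under every alternative run. These counts are given without the share of all kept probes under each alternative, so their shifts cannot be read as particular to solute carriers. Fits on the groups compared alone had fewer residual degrees of freedom. The cause of the other shifts was not tested. Slc31a1 passed in DM without background correction (0.79), with the authors' values (0.78) and with either block. With the replicate number as a block, the counts were 45, 21 and 8, and 0 in the knock-downs. Same-numbered arrays correlated in their deviations at -0.02 to 0.32. Same-numbered GM and DM arrays shared a BeadChip (correlation 0.09), as did those of siScramble, siBAF60b and siBAF60c (0.23 to 0.31). Over all 6 groups a replicate number spans several BeadChips. The main fit does not treat the arrays as paired, and the BeadChip and replicate blocks are given as alternatives. Dim probes, 67 of the 242 detected on 2 to 4 arrays, carry the least reliable differences.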
